A study of Mus musculus with 4 samples.

Results

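Kinesins are the motor proteins that walk along, bundle or dismantle microtubules. The genes described here are all protein-coding mouse genes whose GENCODE M21 symbol is Kif followed by a number and an optional letter from a to c, or Kifc followed by a digit. They number 41 of the 52636 genes in the deposited tables. By textbook role, 17 were classed as transport kinesins, 13 as mitotic kinesins and 11 as other kinesins, which build or regulate cilia, act in Hedgehog signalling, trim microtubule ends or have no settled role.

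The libraries are the 2 input RNA libraries of an RNA immunoprecipitation sequencing study of YTHDF2, a reader of m6A-modified mRNA. The input is the RNA of the lysate that was not put through the antibody. It came from the hippocampus of wild-type C57BL/6 mice at postnatal day 40, with no treatment named, and both input libraries belong to 1 group. The 2 YTHDF2 immunoprecipitation libraries of the study were not analysed here. The deeper input library held 3334451 gene counts over 21292 detected genes, and the shallower held 2563069 counts over 21693. The column names do not settle which of the 2 replicate titles each column belongs to, so each library is named here by its depth. The labels do not say whether the libraries came from separate animals, so the spread between them may be technical. With 1 group there is no test between conditions, and the comparisons below are between kinesin classes read in the same libraries or between the libraries themselves. Markers of neurons and glia reached a mean of 5 CPM (counts per 1e6 library counts), the minimum used for a measured level. That held for 8 of 8 neuronal, 4 of 4 astrocyte, 4 of 4 oligodendrocyte and 4 of 4 microglial markers. Of 3 endothelial markers 1 reached it, Flt1 at 5.09 CPM.

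A kinesin carries a motor domain that binds ATP and microtubules, joined to a tail that selects the cargo. Neurons do not divide, and they use plus-end-directed kinesins to carry vesicles, mitochondria and mRNA out along axons and dendrites, and the dynein motor to bring material back. Dividing cells make another set of kinesins that push spindle poles apart, move chromosomes and complete cytokinesis, and genes of that set are switched on with the cell cycle.

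The ATP-binding P-loop shows how alike the motor domains are, and it is printed for 3 highly counted transport kinesins and for 2 mitotic kinesins. Each line gives 60 coding bases 5′ to 3′ from the longest protein-coding GENCODE M21 transcript, on GRCm38, with the 8 P-loop codons in capitals and the position and exon of those codons.
Kif5a (capitals at chr10:127248042-127248065, minus strand, exon 3): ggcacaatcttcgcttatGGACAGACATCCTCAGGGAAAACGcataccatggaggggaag
Kif5c (capitals at chr2:49680203-49680226, plus strand, exon 3): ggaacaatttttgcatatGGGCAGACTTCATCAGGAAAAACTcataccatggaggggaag
Kif1b (capitals at chr4:149274967-149274990, minus strand, exon 4): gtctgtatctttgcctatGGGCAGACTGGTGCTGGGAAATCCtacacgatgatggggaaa
Kif11 (capitals at chr19:37384736-37384759, plus strand, exon 4): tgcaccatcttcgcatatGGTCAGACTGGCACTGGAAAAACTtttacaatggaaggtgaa
Kif23 (capitals at chr9:61937178-61937201, minus strand, exon 5): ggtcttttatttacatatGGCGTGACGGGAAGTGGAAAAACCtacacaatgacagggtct

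The form that begins with codons for Gly-Gln-Thr was found in 17 of 17 transport kinesins, 7 of 13 mitotic kinesins and 8 of 11 other kinesins. The remaining mitotic kinesins, which include Kif23, matched only the general pattern of a Gly codon, 4 codons of any kind, then Gly-Lys and Ser or Thr. Kif5a and Kif5c were identical at 19 of the 24 P-loop bases, and Kif5c and mitotic Kif11 at 18. Kif5c and mitotic Kif4 were identical at 20, Kif3c and mitotic Kif11 at 20, and the transport pair Kif5a and Kif1b at 15. Identities were counted only among chosen genes of the Gly-Gln-Thr form, which leaves out Kif23. They therefore do not compare the classes. Long identical runs between members of the 41 were rare. No 2 of them shared more than 29 stretches of 31 bases, the most being between Kif18a and Kif15, and Kif5a and Kif5c shared none with any other gene. Genes outside the 41 are not covered by that count. Of the 31-base stretches of Kifc1, 57.2% also occur in transcripts of other genes, among them Kifc5b, whose symbol falls outside the rule.

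Transport kinesin mRNA was abundant and mitotic kinesin mRNA was close to the limit of counting. All 17 transport kinesins reached a mean of 5 CPM, against 0 of 13 mitotic kinesins and 4 of 11 other kinesins. That made 21 of 41 kinesins, beside 47.8% of all 21896 protein-coding genes. In the shallower library alone mitotic Kif22 was above this minimum, at 5.46 CPM. At a mean of 1 CPM there were 29 kinesins, beside 60.2% of protein-coding genes. At a mean of 20 CPM there were 14 transport, 0 mitotic and 2 other kinesins, beside 28.9% of protein-coding genes. At the other end, 0 transport, 5 mitotic and 2 other kinesins had no count in either library, beside 32.3% of protein-coding genes. In tissue RNA, fewer cells of a type and less RNA per cell cannot be told apart.

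Kinesins together took 19657 counts in the deeper library and 16580 in the shallower. That was 0.590% (95% exact binomial interval 0.581 to 0.598) and 0.647% (0.637 to 0.657) of each library's counts, where the intervals cover counting error only. Transport kinesins had 19137 and 16177 counts in the deeper and shallower libraries, and mitotic kinesins had 31 and 28. Transport kinesins therefore held 97.4% and 97.6% of kinesin counts.

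Levels of different genes are compared on the deposited FPKM scale, counts per kilobase of 1 length per gene, scaled to the library total. Summed FPKM was 2187 ± 82.9 for transport kinesins and 5.69 ± 0.879 for mitotic kinesins (SD, n = 2). The ratio of these sums, transport over mitotic, was 420 in the deeper library and 356 in the shallower, a mean of 388 ± 45.4. The mitotic sum rests on few counts, and the corresponding ratio of summed counts was 617 (95% exact binomial interval 435 to 909) in the deeper library and 578 (400 to 870) in the shallower. It also leans on single genes. Without Kif5c, the transport kinesin with the highest FPKM, the FPKM ratio was 260 ± 14.2, and without Kif22, the mitotic kinesin with the highest FPKM, it was 795 ± 358. With Kif2a, which works both in spindles and in neurons, moved to the mitotic side, it was 86.9 ± 11.1.

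By FPKM the classes did not overlap within either library, though in the shallower library they nearly met. Median FPKM of the transport kinesins was 27.1 in the deeper library and 26.1 in the shallower, and that of the mitotic kinesins was 0.151 and 0. The median over all protein-coding genes was 1.94 and 2.41 FPKM. With every mitotic kinesin set to no less than 3 counts, the transport median was 43.5-fold higher in the deeper library and 41.3-fold higher in the shallower. That floor stands in for counts of 0 to 2, whose own 95% intervals reach above it. The lowest transport kinesin, Kif16b, had 3.73 ± 1.22 FPKM, and the highest mitotic kinesin, Kif22, had 2.66 ± 2.14. In the shallower library Kif16b had 4.59 FPKM and Kif22 had 4.17, which is above the 2.87 of Kif16b in the deeper library. For Kif22 in the shallower library, the exact 95% interval was 2.99 to 9.16 CPM around 5.46, so counting error alone could close that gap. The fewest counts of any transport kinesin were 35 in the deeper library and 43 in the shallower, and the most of any mitotic kinesin were 9 and 14.

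**Figure D1:**
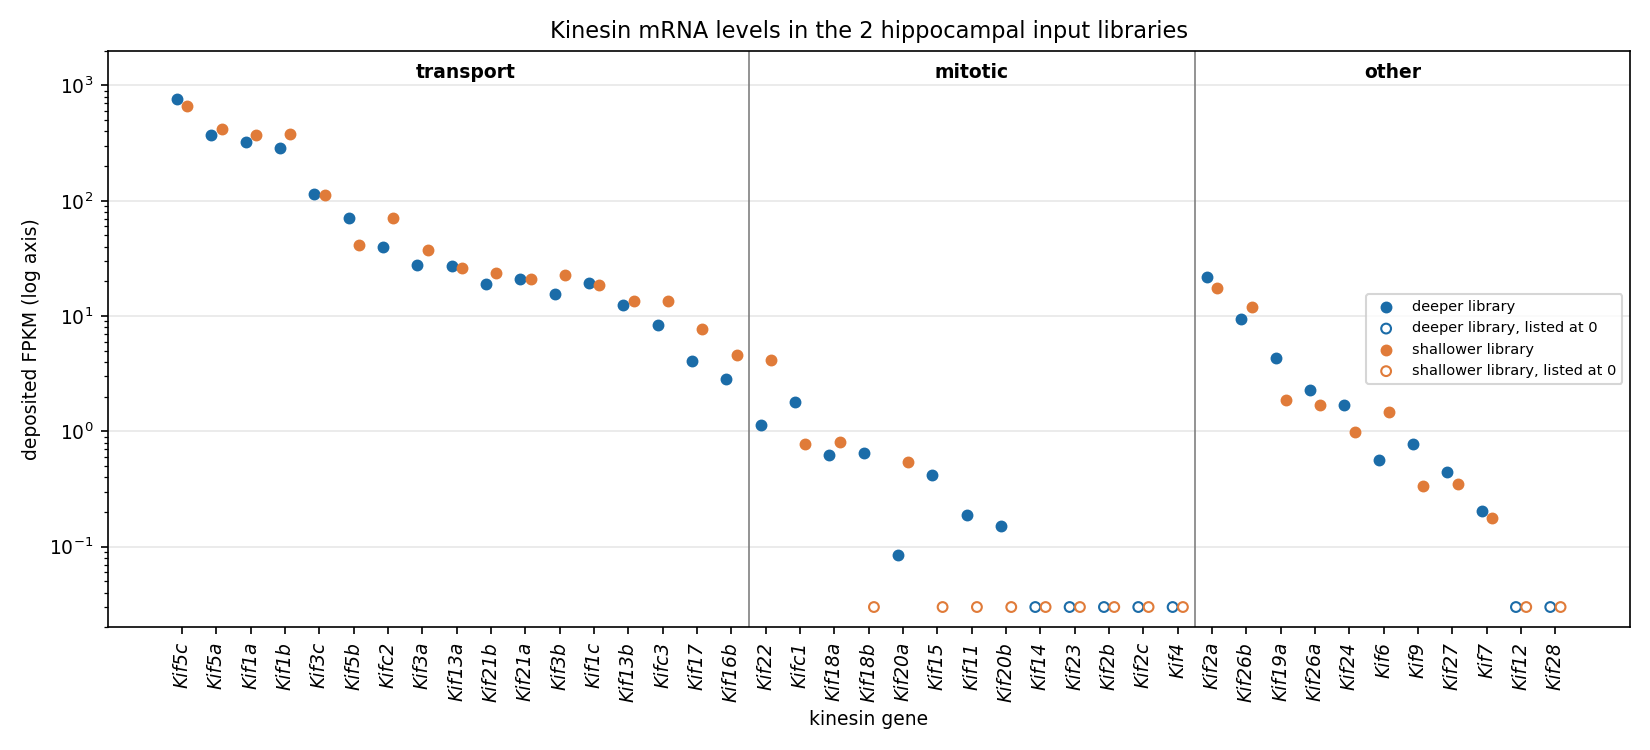
Deposited FPKM (log axis) of each of the 41 kinesin genes in the deeper library (blue) and the shallower library (orange), ordered within each class by mean level, with open circles along the lower edge for genes listed at 0. Within each library all 17 transport kinesins lie above all 13 mitotic kinesins, from Kif5c at a mean of 712 FPKM down to Kif16b at 3.73. In the shallower library Kif16b (4.59) and Kif22 (4.17) nearly meet.

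Among transport kinesins, the kinesin-1 heavy chains were the most abundant family. These are Kif5a, Kif5b and Kif5c, which pair with light chains to carry mitochondria, vesicles and mRNA granules along axons and dendrites. Together they had 9139 counts in the deeper library and 6864 in the shallower, and a summed FPKM of 1164 ± 57.6 (SD, n = 2). Kif5b is made in most tissues, and Kif5a and Kif5c are enriched in neurons.

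Kif5c (chr2:49619298-49774778, plus strand, GRCm38) had 4041 counts in the deeper library and 2730 in the shallower, or 758 and 667 FPKM. It ranked 31 by mean FPKM among all protein-coding genes. Kif5a (chr10:127225696-127263348, minus strand) had 4591 and 3908 counts, or 375 and 416 FPKM, and ranked 76. Both neuronal heavy chains were thus among the most abundant mRNAs of the tissue. Kif5b (chromosome 18) had 507 and 226 counts, or 71.2 and 41.3 FPKM, and ranked 1340. Kif5a was 5.28-fold above Kif5b by FPKM in the deeper library and 10.1-fold above it in the shallower, so the order held in both while the size of the gap did not.

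The order of Kif5c and Kif5a depended on the length used. The deposited values divide by 1598 bases for Kif5c and 3668 for Kif5a, although their longest protein-coding transcripts are 6856 and 6295 bases, 4.29 and 1.72 times the divisor. Kif5c over Kif5a was 2.02 in the deeper library and 1.60 in the shallower by FPKM. Per kilobase of the longest coding transcript the same ratio was 0.808 and 0.641, and by CPM with no length it was 0.880 and 0.699. Each scale gave the same order in both libraries, and FPKM gave the opposite order to the other scales. Which isoforms were present was not tested, since the tables hold 1 value per gene.

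**Figure D2:**
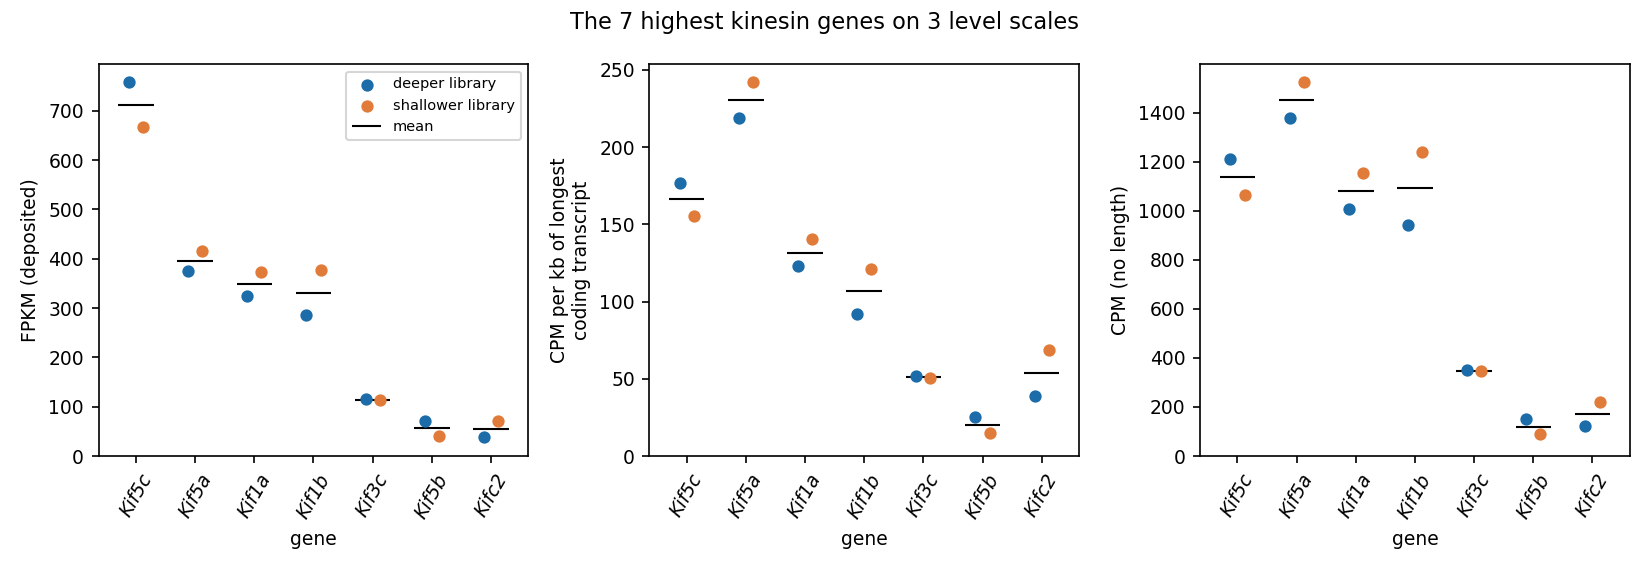
Levels of the 7 kinesin genes with the highest FPKM on 3 scales: deposited FPKM, CPM per kilobase of the longest protein-coding transcript, and CPM with no length (linear axes starting at 0), with the deeper library in blue, the shallower in orange and the mean as a bar. Kif5c stands above Kif5a by FPKM (means of 712 and 396) and below it on the other scales (166 and 230 per kilobase of the longest transcript).

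The kinesin-3 family was next, with a summed FPKM of 743 ± 98.7 over its 6 transport members. These motors carry synaptic vesicle precursors, dense-core vesicles, endosomes and mitochondria. Kif1a and Kif1b held most of the family's level. Kif1a (chr1:93015464-93101951, minus strand), the motor for synaptic vesicle precursors, had 3357 counts in the deeper library and 2960 in the shallower, or 325 and 373 FPKM. Kif1b (chr4:149176319-149307693, minus strand), whose isoforms carry mitochondria or synaptic vesicle precursors, had 3138 and 3178 counts, or 286 and 377 FPKM. Kif1a over Kif1b was 1.14 by FPKM in the deeper library and 0.990 in the shallower, so FPKM did not settle the order of this pair. Per kilobase of the longest coding transcript the ratio was 1.33 and 1.16, with Kif1a above Kif1b in both libraries.

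The other transport kinesin-3 members lay at a mean of 26.6 FPKM or below. Kif13a, a motor of recycling endosomes, had 177 counts in the deeper library and 131 in the shallower (26.6 ± 0.711 FPKM). Kif1c, which carries dense-core vesicles, had 329 and 242 counts (19.0 ± 0.591 FPKM). Kif13b had 164 and 137 counts (12.98 ± 0.763 FPKM). Those 3 genes differed little between libraries. Kif16b, a motor of early endosomes, had 35 and 43 counts (3.73 ± 1.22 FPKM) and was the lowest transport kinesin. Its counts were a small fraction of those of Kif1a.

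Kinesin-2 motors work as pairs of unlike heavy chains, Kif3a with Kif3b or Kif3c, or in the case of Kif17 as a pair of like chains. They carry vesicles in neurons and build cilia. Their summed FPKM was 172 ± 12.8, and most of it came from Kif3c, the chain most restricted to neurons. Kif3c (chr12:3365132-3406494, plus strand) had 1173 counts in the deeper library and 884 in the shallower, or 115 and 113 FPKM. Kif3a, the partner shared by both pairs, had 149 and 153 counts, or 28.0 and 37.4 FPKM. Kif3b had 293 and 331 counts, or 15.6 and 22.9 FPKM. Kif3c was thus above the partner that it shares with Kif3b. Kif3c over Kif3a was 4.11 in the deeper library and 3.02 in the shallower by FPKM, and 3.66 and 2.69 per kilobase of the longest coding transcript. Kif17, which carries NMDA receptor subunits in dendrites, had 37 and 54 counts (5.96 ± 2.61 FPKM) and was the lowest of the family.

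The level of Kif3c carries a limit of annotation. Exons of the antisense gene 1110002L01Rik cover 35.3% of its exonic bases, and 40.2% of its 31-base stretches (both strands) also occur in transcripts of other genes. That antisense gene had 5 counts in the deeper library and 10 in the shallower, far under those of Kif3c. Whether reads were assigned by strand is not given in the sources used here.

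Kinesin-4 and kinesin-14 completed the transport class. Kif21a and Kif21b, kinesin-4 motors that also dampen microtubule growth, had a summed FPKM of 42.3 ± 3.44. Kif21a had 437 counts in the deeper library and 339 in the shallower (20.9 ± 0.136 FPKM). Kif21b had 255 and 244 counts (21.4 ± 3.30 FPKM), and by FPKM the order of this pair was not settled. Per kilobase of the longest coding transcript Kif21a was 2.43-fold above Kif21b in the deeper library and 1.97-fold above it in the shallower. Kifc2 and Kifc3 are kinesin-14 motors, which walk towards microtubule minus ends. Kifc2, expressed mainly in neurons, had 414 and 568 counts, or 39.5 and 70.5 FPKM, while Kifc3 had 40 and 49 counts, or 8.42 and 13.4 FPKM. Kifc2 was 4.69-fold above Kifc3 in the deeper library and 5.25-fold above it in the shallower.

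Over the 16 kinesins with a mean of at least 20 CPM, ranked by FPKM, 6 of the 15 neighbouring pairs had overlapping library values. Those pairs were Kif1a and Kif1b, Kif5b and Kifc2, and the steps along the run of Kif21b, Kif21a, Kif2a, Kif3b and Kif1c. Beyond neighbours, the values of Kif5a and Kif1b also overlapped. By FPKM Kif5c lay above every other kinesin in both libraries, and Kif3c lay below Kif5c, Kif5a, Kif1a and Kif1b in both. By CPM, 11 of 15 pairs overlapped, and per kilobase of the longest coding transcript 7 of 15 did.

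Mitotic kinesins were found at counts in single or low double digits, spread over 8 of the 13 genes. Only 2 of them had more than 3 counts in both libraries, Kif18a and Kif22. Kif22, a chromosome-arm motor, had 5 counts in the deeper library and 14 in the shallower (2.66 ± 2.14 FPKM). Kif18a, which damps chromosome movements at metaphase, had 6 and 6 counts (0.717 ± 0.133 FPKM). Kifc1, which focuses spindle poles, had 9 and 3 counts, but 57.2% of its 31-base stretches also occur in transcripts of other genes, among them Kifc5b, so its counts are uncertain. Without Kifc1 the transport over mitotic ratio of summed FPKM was 530 ± 175.

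The motors of cytokinesis and the spindle midzone were at or near 0. Kif20a had 1 count in the deeper library and 5 in the shallower, and exons of Cdc23 on the opposite strand cover 29.3% of its exonic bases. Kif20b had 1 and 0 counts, and Kif14 and Kif23 had 0 in both. For a count of 0, as in Kif14 and Kif23, the upper end of the exact 95% interval was 1.11 CPM in the deeper library and 1.44 CPM in the shallower. Spindle motors were similar. Kif11, which slides antiparallel spindle microtubules apart, had 3 and 0 counts, and Kif15, which can share that task, had 2 and 0. Kif18b had 4 and 0 counts. Kif4, a chromosome-bound kinesin-4, and the depolymerases Kif2b and Kif2c had no counts in either library. At this depth no order among these genes can be read.

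Of the other kinesins, only Kif2a and Kif26b were well measured. Kif2a, a microtubule depolymerase that limits axon branching and also acts at spindle poles, had 175 counts in the deeper library and 107 in the shallower (19.6 ± 3.16 FPKM). The exons of Dimt1 on the opposite strand cover 19.2% of its exonic bases, and Dimt1 had 32 and 15 counts. Kif26b, an atypical kinesin with a role in development, had 234 and 226 counts (10.7 ± 1.73 FPKM). Kif19a, which trims cilia, and Kif26a were the remaining members above a mean of 5 CPM. They had 24 and 28 counts in the deeper library and 8 and 16 in the shallower. The other 7, among them Kif6, Kif9 and Kif27 of motile cilia and Kif7 of Hedgehog signalling, had between 0 and 11 counts per library. The 3 markers of ciliated ependyma summed to 43 counts in the deeper library and 43 in the shallower, and their part in the ciliary kinesin counts was not tested.

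Genes that work with the transport kinesins were present at comparable levels. Of 4 kinesin light chains, which link Kif5 heavy chains to cargo, 3 reached 5 CPM, and the list had a summed FPKM of 345 ± 54.0. Klc1 had 988 counts in the deeper library and 967 in the shallower, and Klc2 had 484 and 432. Klc4 had 32 and 45, and Klc3 had none. Klc1 at 246 ± 41.9 FPKM lay below Kif5c and Kif5a and above Kif5b. All 23 adaptors and cargo links reached 5 CPM, with Nsf, Arl8a and Trak2 among the highest. Trak2, which couples kinesin-1 to mitochondria, had 771 and 526 counts (114 ± 9.62 FPKM). Of 26 subunits of cytoplasmic dynein and its activator dynactin, the minus-end machinery of axons, 24 reached 5 CPM. The dynein heavy chain Dync1h1 had 1745 and 1909 counts (273 ± 67.4 FPKM). The summed FPKM of the dynein and dynactin list was 1581 ± 176, and that of the 17 transport kinesins was 2187 ± 82.9.

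Other genes of cell division were mostly low too, though some stood above every mitotic kinesin. Of 25 other mitotic and proliferation genes, 4 reached 5 CPM and 8 had no count in either library. They summed to 221 counts in the deeper library and 180 in the shallower. Their summed FPKM was 38.96 ± 1.51, of which Anln, a cytokinesis scaffold that oligodendrocytes also express, gave 16.1 ± 1.67. Pcna, the DNA polymerase clamp, gave 8.26 ± 1.79. Of 6 defining markers of dividing cells, all of them also in that list of 25, 1 reached 5 CPM. This was Mki67, with 22 counts in the deeper library and 19 in the shallower. Cdk1 and Bub1 were at 0 in both, and the 6 summed to 31 and 21 counts. The 4 markers of immature neurons, the progeny of hippocampal neurogenesis, summed to 427 and 317 counts, and 3 of them reached 5 CPM. Among them Dcx had 156 and 110 counts, and Eomes had 0 and 4. The part of these markers in the mitotic kinesin counts was not tested.

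**Figure D3:**
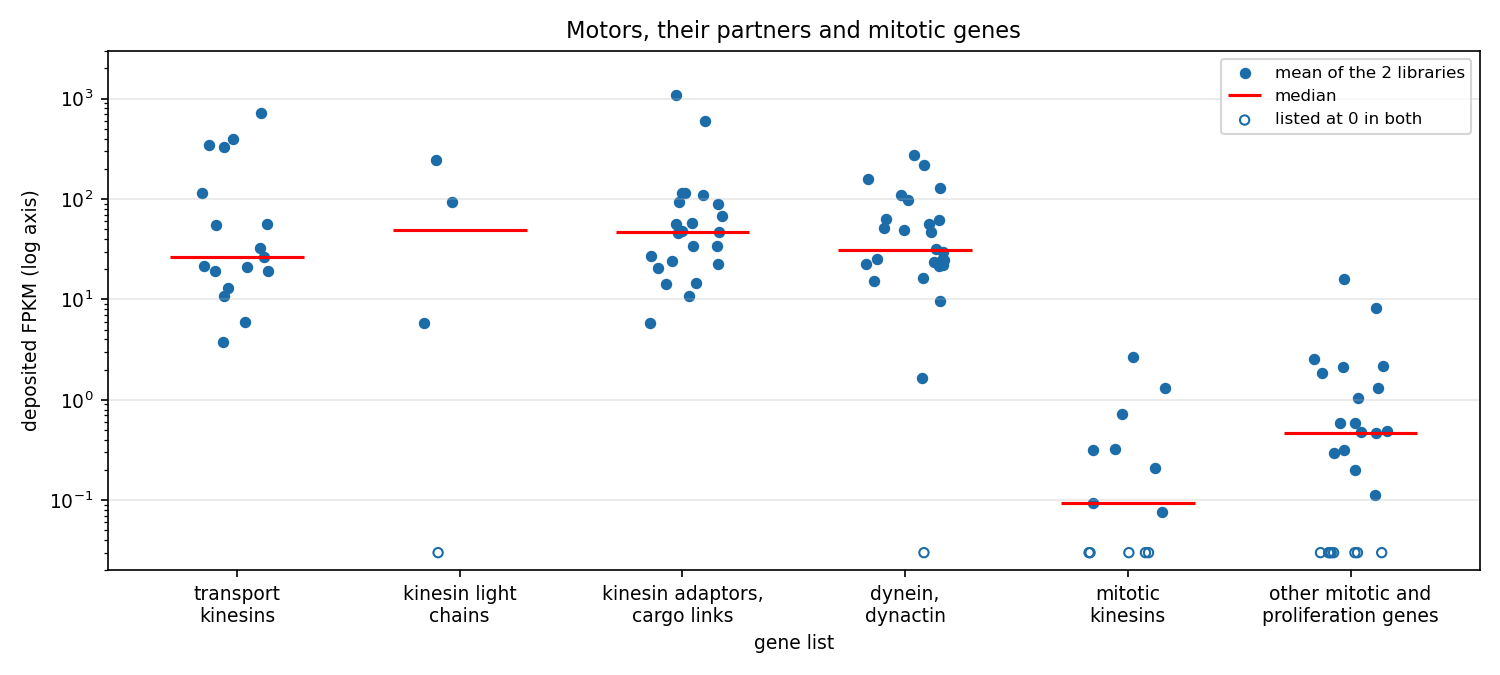
Mean deposited FPKM of the 2 libraries (log axis) for every gene of 6 lists, with the list median as a red bar and open circles for genes listed at 0 in both libraries. Transport kinesins lie in the range of light chains, adaptors and dynein subunits, and mitotic kinesins lie in the range of other mitotic genes, of which 8 of 25 are at 0.

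Between the libraries, the kinesin ratios were centred close to those of all genes, while single kinesins differed. Over the 16 kinesins with a mean of at least 20 CPM, the median log2 ratio, deeper over shallower, was 0.01, beside 0.04 over all 6915 genes at that level. These ratios are on the log2(CPM + 0.5) scale with trimmed-mean (TMM) scaling. None of the 16 was at least 2-fold apart between libraries, beside 3.93% of all genes, a share too small to be read in 16 genes. Among the 21 kinesins at 5 CPM 1 was, Kif19a at a log2 ratio of 1.22 (95% counting interval 0.15 to 2.71), beside 9.53% of all genes at that level. By counting error alone, 7 of the 16 had a 95% interval that left out 0, beside 43.1% of all genes, so that share was near the background. Of these, 4 lay above 0, beside 25.1% of genes, and 3 below, beside 18%.

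Single members did lie apart by more than counting error. Kif5b was the highest in the deeper library, with a log2 ratio of 0.93 (95% counting interval 0.70 to 1.16). Kif2a followed at 0.47 (0.12 to 0.84), Kif5c at 0.33 (0.26 to 0.40) and Kif3c at 0.17 (0.05 to 0.30). Kifc2 was the lowest at -0.69 (-0.88 to -0.51), then Kif3b at -0.41 (-0.64 to -0.18) and Kif1b at -0.25 (-0.32 to -0.18). The intervals of Kif5a, at -0.00, and of Kif1a, at -0.05, held 0. The members of 1 family could thus part: of the kinesin-1 heavy chains, Kif5b and Kif5c were higher in the deeper library while the interval of Kif5a held 0. Summed by family, the log2 ratio was 0.18 for kinesin-1 (0.13 to 0.22), -0.13 for transport kinesin-3 (-0.18 to -0.08) and -0.68 for transport kinesin-14 (-0.86 to -0.50).

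The library ratio moved with base composition. Kif5b has 41.1% G+C over its longest coding transcript and Kif2a 38.6%, and both were higher in the deeper library, while Kifc2 has 59.5% and was lower. Across the 16 kinesins Spearman's rho between G+C and the ratio was -0.471 and Pearson's r was -0.655. Across 6308 nuclear protein-coding genes at the same level, rho was -0.424 and r was -0.326. All points share the same 2 libraries, and genes are not independent replicates, so these values describe the libraries. The part of G+C in the ratio of any 1 kinesin was not tested.

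**Figure D4:**
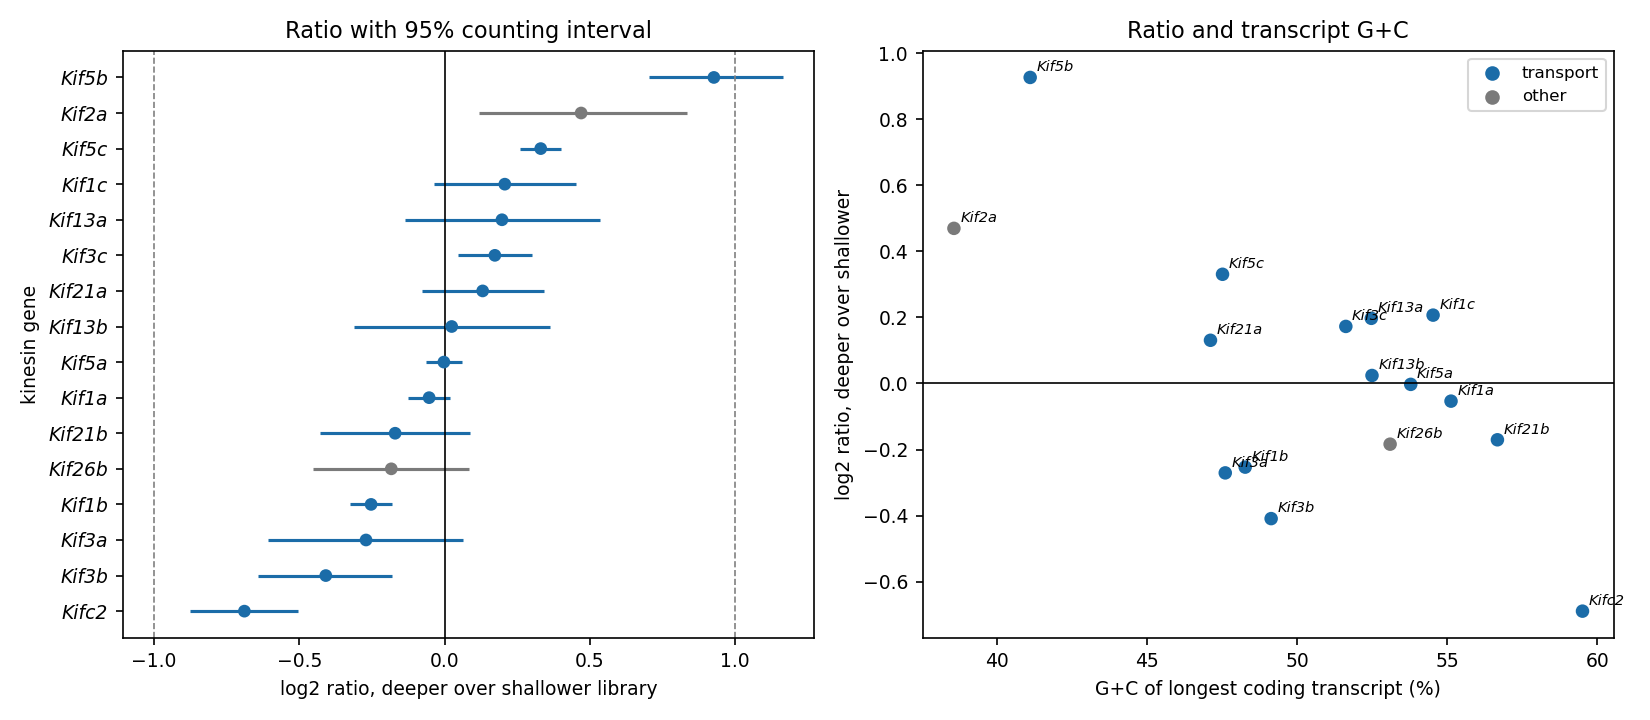
Left, log2 ratio of the deeper over the shallower library for the 16 kinesins with a mean of at least 20 CPM, with 95% counting intervals and dashed lines at a 2-fold difference. Right, the same ratios against the G+C percentage of the longest coding transcript, where Kif5b (41.1% G+C, ratio 0.93) and Kifc2 (59.5%, -0.69) lie at opposite ends.

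Transport and mitotic kinesin genes also differ in the layout of their transcripts, by the GENCODE M21 annotation and without use of the counts. The median annotated 3′ UTR of the longest coding transcript was 2762 bases in transport kinesins, 531 in mitotic kinesins and 683 in other kinesins, beside 882 over all protein-coding genes. The ranges overlapped, from 68 (Kif17) to 4452 bases (Kif1b) in transport kinesins and from 65 (Kif22) to 3898 bases (Kif14) in mitotic kinesins. Coding lengths were closer, with medians of 3114, 2661 and 3102 bases in the transport, mitotic and other classes, beside 1146 over all protein-coding genes. Transport kinesins had a median of 26 exons and mitotic kinesins 20. The 5 most counted transport kinesins have 3′ UTRs of 2762 to 4452 bases. Per kilobase of the longest coding transcript, the transport over mitotic ratio of summed levels was 234, against 388 by deposited FPKM.

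The share of genes with a cell-cycle promoter motif also differed between the classes. The cell-cycle genes homology region (CHR), TTTGAA, is a site through which the DREAM and MuvB complexes silence cell-cycle genes in resting cells, often a short way from a CCAAT box. It was searched on both strands in the RefSeq promoter table (GRCm38.p6), which holds the 250 bases before and 50 after each start site, and a gene counted if any of its windows held the letters. Windows were given for 11 of 17 transport kinesins, 12 of 13 mitotic kinesins and 9 of 11 other kinesins. CHR letters were in 1 of 11 transport kinesins (9.09%), 10 of 12 mitotic kinesins (83.3%) and 2 of 9 other kinesins (22.2%), beside 20.2% of the 27025 genes of the table. The exceptions were Kif1a in the transport class, by a window inside its gene, and Kif18a and Kif2b in the mitotic class. The windows of mitotic Kif14, Kif2c and Kif4, which are among the 10 with CHR letters, also lie inside their genes as GENCODE M21 places them.

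In most of these mitotic kinesins the match lay near the start site. Within 50 bases of it, a limit chosen after the positions were seen, CHR letters were in 1 of 11 transport kinesins, 8 of 12 mitotic kinesins (66.7%) and 1 of 9 other kinesins, beside 5.72% of all genes. CCAAT, searched the same way, was in 3 of 11 transport, 8 of 12 mitotic and 4 of 9 other kinesins, beside 41.1% of all genes. The GC box GGGCGG was in 9 of 11 transport, 6 of 12 mitotic and 6 of 9 other kinesins, beside 38.2% of all genes. Matches of different motifs were allowed to overlap. A match describes letters and not a bound site, and no match says only that the letters are not in the window.

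The stretches below run from 100 bases before the start site to 30 after it, 5′ to 3′ on the gene's strand, from RefSeq on GRCm38.p6. They show 3 abundant transport kinesins and then 5 mitotic kinesins with a CHR match near the start site, and capitals mark CHR and CCAAT letters on either strand (TTCAAA and ATTGG on the reverse).
Kif5c (chr2:49619186-49619315, plus strand): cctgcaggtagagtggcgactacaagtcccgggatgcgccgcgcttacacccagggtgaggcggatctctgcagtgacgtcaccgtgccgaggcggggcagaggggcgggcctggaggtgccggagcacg
Kif1b (chr4:149307704-149307833, minus strand): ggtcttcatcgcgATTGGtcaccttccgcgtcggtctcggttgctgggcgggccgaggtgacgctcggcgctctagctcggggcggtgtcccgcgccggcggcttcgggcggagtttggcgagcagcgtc
Kif3c (chr12:3365032-3365161, plus strand): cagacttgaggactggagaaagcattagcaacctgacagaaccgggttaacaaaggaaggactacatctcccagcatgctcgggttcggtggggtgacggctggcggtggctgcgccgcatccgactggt
Kif11 (chr19:37376282-37376411, plus strand): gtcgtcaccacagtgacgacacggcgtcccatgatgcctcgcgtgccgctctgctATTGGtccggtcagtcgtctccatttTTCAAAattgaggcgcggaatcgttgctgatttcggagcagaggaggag
Kif15 (chr9:122950981-122951110, plus strand): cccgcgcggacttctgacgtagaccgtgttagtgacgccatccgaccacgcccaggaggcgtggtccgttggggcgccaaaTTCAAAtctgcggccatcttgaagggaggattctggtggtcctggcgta
Kif20b (chr19:34922258-34922387, plus strand): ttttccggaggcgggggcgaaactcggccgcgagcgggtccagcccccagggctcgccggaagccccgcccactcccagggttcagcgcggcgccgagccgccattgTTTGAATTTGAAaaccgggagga
Kif23 (chr9:61946770-61946899, minus strand): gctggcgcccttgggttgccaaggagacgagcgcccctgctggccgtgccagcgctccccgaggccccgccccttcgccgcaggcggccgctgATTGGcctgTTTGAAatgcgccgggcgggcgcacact
Kifc1 (chr17:33890604-33890733, minus strand): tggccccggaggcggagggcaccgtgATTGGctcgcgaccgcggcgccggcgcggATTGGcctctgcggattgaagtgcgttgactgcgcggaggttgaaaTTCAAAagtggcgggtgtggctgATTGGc
The 3 printed transport stretches hold no CHR letters, and only that of Kif1b has a CCAAT. Kif1a, also abundant but not printed, has CHR letters at -44 from the start site of its window inside the gene. The stretches were picked to show the letters, so they do not compare the classes. In Kif11, Kif23 and Kifc1 a CHR match follows at least 1 CCAAT on the reverse strand, in Kif15 it stands alone, and in Kif20b it occurs as an abutting pair. By level, the same 5 mitotic genes had at most 9 counts per library, against at least 884 for the 3 transport genes. Those 3 were picked as abundant, so this contrast was set by the choice of genes. Some genes not printed kept to this contrast, such as mitotic Kif4 with CHR letters and 0 counts, and others did not. Kif1a, with CHR letters, had 3357 counts in the deeper library and 2960 in the shallower. Mitotic Kif18a, without them, had 6 counts in each library, and mitotic Kif2b, also without, had 0. Any link between the letters and level was not tested.

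**Figure D5:**
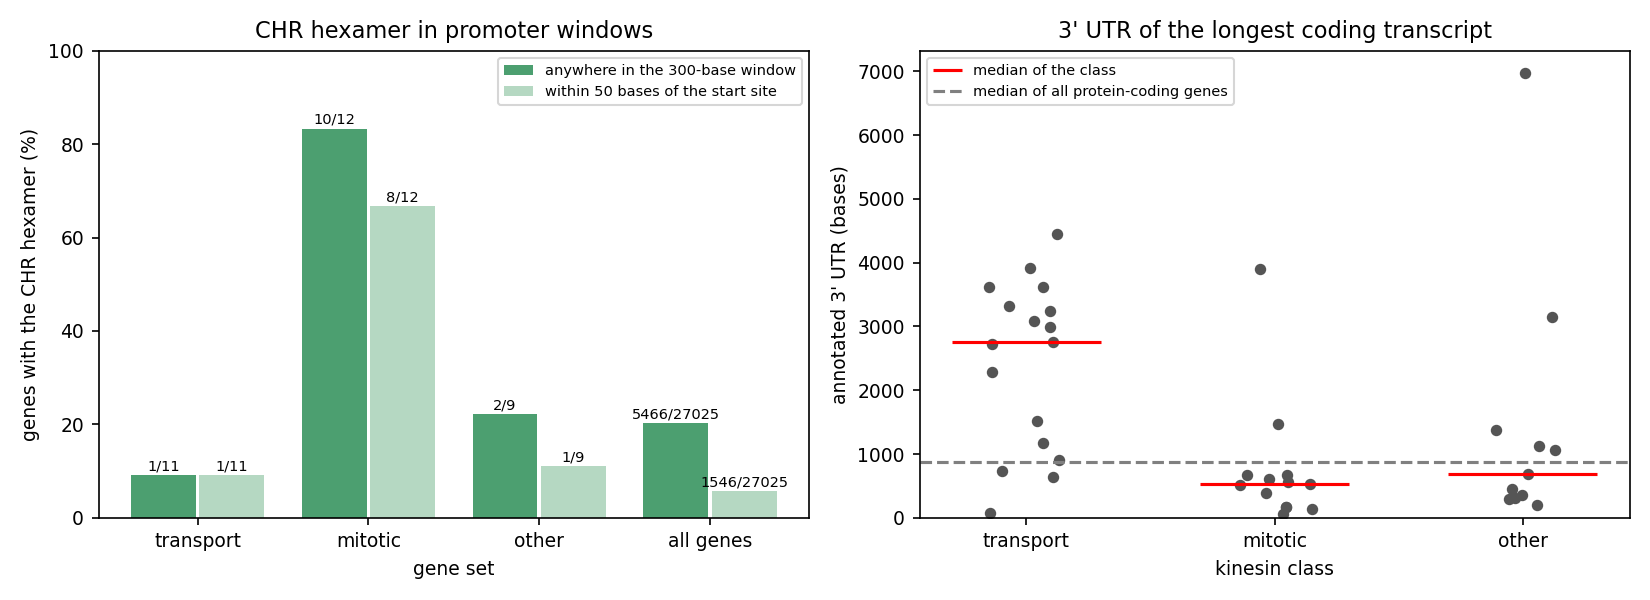
Left, the percentage of genes with CHR letters anywhere in the promoter window (dark) or within 50 bases of the start site (light), with the number of genes over the number with a window. Right, annotated 3′ UTR length of each kinesin's longest coding transcript by class, with class medians in red and the median of all protein-coding genes dashed: 10 of 12 mitotic kinesins hold CHR letters, and the transport median of 2762 bases stands above the 531 of the mitotic class.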

How the data were processed

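Counts and FPKM of the 2 input libraries (total RNA) were used as deposited by the authors, the counts raw and the FPKM scaled to each library's total. BWA 0.7.12, MACS2 2.1.0, HOMER and GRCm38 are named per the submitters' processing notes, with no role given. The sources used here do not give the read counter or its strand setting. For 18734 of 18734 genes counted in both libraries, FPKM equalled count over total over 1 whole length (tolerance 0.01 bases). For 26 of 34 kinesins with such a length, it lay within 1 base of the mean GENCODE M21 transcript length.

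Of 52636 gene IDs, 52489 matched GENCODE M21. Library ratios were log2(CPM + 0.5), deeper minus shallower, with edgeR 4.0.16 TMM factors of 0.951 (deeper) and 1.05 (shallower) from the 12218 genes at a mean of 5 CPM. Their intervals are exact binomial 95% intervals, with no pseudocount, and cover counting error only. The ratio step was run on simulated counts drawn with counting error alone and without TMM scaling. That run says nothing of spread beyond counting error in the real libraries. Alternatives were DESeq2 1.42.0 size factors, other minimums, pseudocounts, lengths and members. A ratio of medians was planned, but the mitotic median was 0 in the shallower library, so a ratio with mitotic genes at no less than 3 counts replaces it. Scripts used R 4.3.3 and Python 3.11.15.

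The kinesin members, classes and lists were chosen with earlier results of these data known. Kif28 was classed after the tables were read. Values per library are given for all transport and mitotic kinesins, Kif2a and other kinesins at 20 CPM. Of related lists, at most 4 members by level are named, and others named with the cell markers were chosen after their values were seen. A few items are not reported here.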

Additional observations from a re-analysis of the deposited data

How the results depend on the processing

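Transport kinesins stayed above mitotic kinesins under every alternative run for their ratio. The summed ratio, 388 by deposited FPKM, was 234 per kilobase of the longest coding transcript and 598 by CPM without length. By members, it was 260 without Kif5c and 86.9 with Kif2a counted as mitotic. It was 369 for kinesin-1, kinesin-2 and kinesin-3 alone. Chosen after seeing the data, it was 795 ± 358 without Kif22, 530 without Kifc1 and 368 without Kif3c. Leaving out 1 library gave 356 to 420. The ratio of medians with mitotic genes at no less than 3 counts, 42.4, was 56.3 per kilobase of the longest transcript, 95.5 by CPM, and 41.3 to 43.5 with 1 library. The number of kinesins at the minimum level, 21 at 5 CPM, was 29 at 1 CPM, 16 at 20 CPM, and 21 with either library alone. The members were not the same in each library. In the shallower library alone mitotic Kif22 reached 5 CPM (5.46 CPM) and Kif19a did not (3.12 CPM). In the deeper library alone Kif19a reached it (7.2 CPM) and Kif22 did not. No kinesin was at least 2-fold apart between libraries except at a minimum of 5 CPM, where 1 of 21, Kif19a, was, beside 9.53% of genes. The median log2 ratio, 0.01, was -0.13 from library totals (all genes -0.10) and 0.073 by DESeq2 size factors (all genes 0.10), and it shifted with the median of all genes. Depth limits the mitotic class, where single counts set each value. No paired analysis was possible because the columns carry no settled replicate number and only 1 group was used.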
